A study of Mus with 6 samples.

Results

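The genes described here were 4 chemokine ligands (Ccl3, Ccl4, Ccl5 and Xcl1), 5 chemokine receptors (Ccr7, Ccr4, Ccr8, Cxcr3 and Cxcr4) and S1pr1. They were taken by symbol from the deposited table, which held all 10 of them among its 10995 protein-coding genes. S1pr1 is not a chemokine receptor. It binds the lipid sphingosine 1-phosphate and is described with them because it acts with Ccr7 in setting how long a T cell stays in a lymph node.

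RNA-Seq was performed on CD4+ T cells from the spleens of WT mice. Naive cells were TCR-activated for 3 days with anti-CD3 at 5 μg/mL and anti-CD28 at 2 μg/mL, together with IL-2 at 100 U/mL. One group received anti–VEGF-B at 1 μg/mL, an antibody against vascular endothelial growth factor B, and the other received normal goat IgG at 1 μg/mL, with 3 libraries each. The sources used here do not say whether the libraries of a group came from separate mice or cultures, so that the p-values measure the spread between these libraries, which may be technical.

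Chemokines are small secreted proteins that bind to G protein–coupled receptors on leukocytes and direct their migration. Naive T cells carry Ccr7, which answers to Ccl19 and Ccl21 made in lymphoid tissue and draws the cells into lymph nodes, and S1pr1, which draws them out again toward the higher sphingosine 1-phosphate of lymph and blood. Activation changes this equipment, as effector cells gain receptors for inflamed tissue and secrete inflammatory chemokines such as Ccl3, Ccl4 and Ccl5.

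The values were FPKM, that is, read numbers scaled for transcript length and library size, and limma was run on log2(FPKM + 1) of the 8816 genes that averaged 1 FPKM or more across all 6 libraries. Calls were made at a Benjamini-Hochberg adjusted p under 0.05 over all of these genes. Because 1 is added before the logarithm, fold changes of scarce transcripts come out smaller than they are. The FPKM summed to between 260058 and 276622 per library. The median FPKM of a library was highest in IgG replicate 2, at 4.76. It was 4.14 and 4.23 in IgG replicates 1 and 3 and 3.46 to 3.68 with anti–VEGF-B. Over all tested genes the log2 fold change (anti–VEGF-B over IgG) had a median of -0.15, and 2099 genes were called lower against 429 called higher. Without IgG replicate 2 these numbers were 1101 and 258. After quantile normalization, which gives each library the same distribution of values, the split was 913 lower against 880 higher. The changes of the 10 members are therefore also given relative to the median of their fit. In bulk RNA, fewer cells with a transcript and less of it per cell cannot be told apart.

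The lymphoid homing receptor Ccr7 and the skin and Th2 homing receptor Ccr4 fell with anti–VEGF-B, to 52.0% and 63.4% of the mean FPKM with IgG. S1pr1 fell to 68.3%, close to the threshold of the test. Ccr8, Cxcr4 and the ligands Ccl4 and Ccl5 were tested and not called. Ccl3, Xcl1 and Cxcr3 had means under 1 FPKM and were not called in a fit of all 10990 genes detected in at least 1 library. Of the 7 members tested, 3 were called lower, or 42.9%, and 23.8% of all tested genes were called lower. None of the 7 was called higher by limma, also at an unadjusted p under 0.05, compared with 4.87% of all tested genes called higher. After quantile normalization, 10.4% of all tested genes were called lower and 9.98% higher, and Ccr7 and Ccr4 were still called lower (adjusted p = 0.00944 and 0.0152 in limma). In the fit of all detected genes 21.2% were called lower and 3.81% higher. The 3 libraries of each group did not overlap, with anti–VEGF-B lower, for 3 of the 7 tested members and for 38.5% of all tested genes. They did not overlap with anti–VEGF-B higher for 1 tested member, Ccr8, and for 10.5% of all tested genes.

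**Figure D1:**
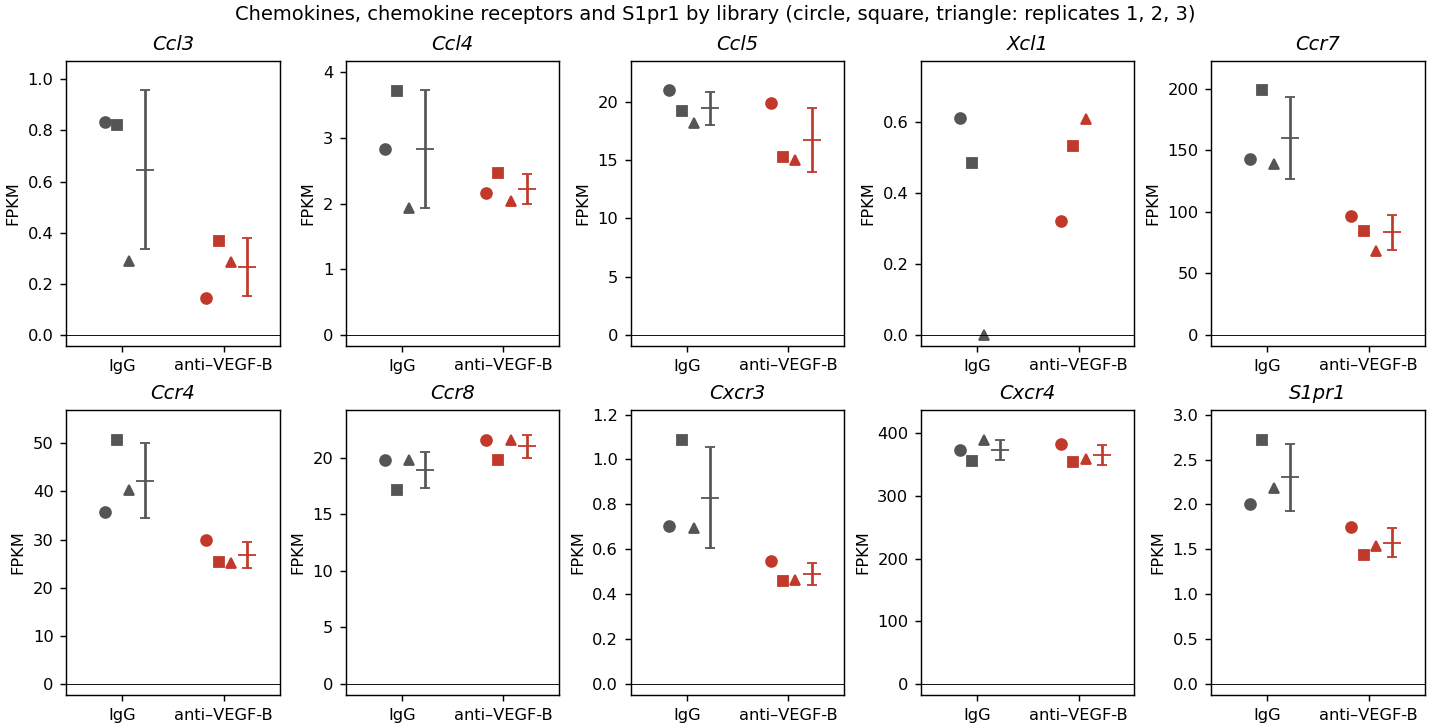
FPKM of each of the 10 genes in the 3 IgG libraries (grey) and the 3 anti–VEGF-B libraries (red), with circle, square and triangle for replicates 1, 2 and 3; the bars show mean ± SD (n = 3), left out for Xcl1, which was listed at 0 in 1 library. All anti–VEGF-B points lie below all IgG points for Ccr7, Ccr4, Cxcr3 and S1pr1, and Cxcr4 sits between 354 and 390 FPKM in every library.

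FPKM are scaled for transcript length, so that levels of different genes can be set side by side. With IgG, Cxcr4 had the highest level of the 10 genes, at 373 ± 16.7 FPKM (SD, n = 3), followed by Ccr7 at 160 ± 33.4, Ccr4 at 42.3 ± 7.72, Ccl5 at 19.5 ± 1.42 and Ccr8 at 18.9 ± 1.56. Ccl4 (2.83 ± 0.895) and S1pr1 (2.30 ± 0.375) came next, and Cxcr3, Ccl3 and Xcl1 were under 1.1 FPKM in every IgG library. The ranges of neighbours in this order overlapped for Ccl5 and Ccr8, for Ccl4 and S1pr1, and among Cxcr3, Ccl3 and Xcl1. The ranges of Cxcr4, Ccr7, Ccr4 and the pair of Ccl5 and Ccr8 did not overlap each other. With anti–VEGF-B, Ccr4 still lay above Ccr8 in each library, but closer to it. The most abundant transcripts of the set were thus those of homing receptors, and among the ligands only Ccl5 exceeded 4 FPKM.

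Ccr7 (ENSMUSG00000037944.8) lies on the minus strand of chromosome 11 at 99144196 to 99155077 in GRCm38. It had 143, 198 and 139 FPKM in IgG replicates 1, 2 and 3 and 96.6, 84.6 and 68.1 FPKM in the anti–VEGF-B replicates. The highest anti–VEGF-B library lay below the lowest IgG library, and IgG replicate 2 stood above the other two. The log2 fold change was -0.93 (SE 0.158, 95% CI -1.29 to -0.58), with an adjusted p of 0.00714 in limma. After subtraction of the all-gene median, -0.78 remained. Ccr7 had a higher FPKM than 97.6% to 98.2% of the genes in the table with IgG and than 95.2% to 96.5% with anti–VEGF-B, so that it remained an abundant transcript and dropped in rank in each library. The adjusted p in limma ranged from 0.00359 to 0.0850 over 15 alternatives, and it passed the threshold only with moderation of the variances, which borrows information on the spread from other genes. Without IgG replicate 2, its log2 fold change was -0.77 (adjusted p = 0.0139, limma).

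Ccr4 (ENSMUSG00000047898.7, chromosome 9, 114490316 to 114504916, minus strand) is the receptor of Ccl17 and Ccl22 and is carried by Th2 cells, regulatory T cells and skin-homing T cells. It had 35.7, 50.8 and 40.3 FPKM in the IgG replicates and 30.0, 25.3 and 25.1 FPKM in the anti–VEGF-B replicates. As for Ccr7, the groups did not overlap and IgG replicate 2, the library with the highest median FPKM, was the highest. The log2 fold change was -0.63 (SE 0.128, 95% CI -0.92 to -0.34, adjusted p = 0.0111 in limma), and -0.48 relative to the all-gene median. Over 15 alternatives its adjusted p in limma ranged from 0.00951 to 0.0936, the last without moderation of the variances. The log2 fold change was -0.59 with quantile normalization, -0.60 with cyclic loess and -0.43 with median centring.

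Ccr8 (ENSMUSG00000042262.5, chromosome 9, 120092114 to 120094906, plus strand) is the receptor of Ccl1 and is likewise carried by Th2 and regulatory T cells. Its FPKM were 19.8, 17.1 and 19.8 with IgG and 21.6, 19.8 and 21.6 with anti–VEGF-B. The groups were apart only by the second decimal, with 19.83 FPKM in the highest IgG library and 19.84 in the lowest anti–VEGF-B library. The log2 fold change of 0.15 (SE 0.0864, 95% CI -0.048 to 0.34) did not pass the test (adjusted p = 0.218, limma). Relative to the all-gene median it was 0.30, and after centring each library on its median Ccr8 was called higher (0.35, adjusted p = 0.0473 in limma). Its adjusted p over the 15 alternatives reached from this value to 0.530.

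Cxcr4 (ENSMUSG00000045382.6, chromosome 1, 128588199 to 128592293, minus strand) is the receptor of Cxcl12, which retains cells in bone marrow and guides them within lymphoid tissue. It had 374, 356 and 390 FPKM in the IgG replicates and 383, 354 and 359 FPKM in the anti–VEGF-B replicates. The groups overlapped, and the log2 fold change was -0.031 (SE 0.0733, 95% CI -0.20 to 0.13, adjusted p = 0.765 in limma). This interval holds changes of up to 0.20 downward and leaves out falls of the size measured for Ccr7 and Ccr4. Relative to the all-gene median, Cxcr4 was at 0.12. The sign of the estimate turned to 0.17 with median centring and to 0.036 with scaling to Actb. It stayed negative with quantile normalization (-0.011) and with cyclic loess (-0.12, adjusted p = 0.134 in limma). The direction for Cxcr4 thus depended on the scaling.

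Cxcr3 (ENSMUSG00000050232.6, chromosome X, 101731535 to 101734269, minus strand) is the Th1-associated receptor of the interferon-induced ligands Cxcl9, Cxcl10 and Cxcl11. It was low in all libraries, with 0.705, 1.09 and 0.693 FPKM in the IgG replicates and 0.546, 0.457 and 0.465 FPKM in the anti–VEGF-B replicates. The groups did not overlap, and the mean with anti–VEGF-B was 59.0% of that with IgG. In the fit of all detected genes the log2 fold change was -0.29 (SE 0.102, 95% CI -0.52 to -0.059), with an adjusted p of 0.0651 in limma, so that Cxcr3 was not called. Relative to the all-gene median it was -0.14. The estimate was -0.067 with median centring, -0.11 with quantile normalization, -0.63 with a pseudocount of 0.1 and -0.19 without IgG replicate 2, and the adjusted p in limma ranged from 0.0619 to 0.573 over all 13 alternatives.

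S1pr1 (ENSMUSG00000045092.8) lies on chromosome 3 at 115710433 to 115715072 (minus strand). Its level was low, at 2.00, 2.72 and 2.18 FPKM in the IgG replicates and 1.75, 1.43 and 1.53 FPKM in the anti–VEGF-B replicates. The groups did not overlap, and IgG replicate 2 was again the highest library. The log2 fold change of -0.36 (SE 0.115, 95% CI -0.62 to -0.096) passed the threshold narrowly (adjusted p = 0.0460, limma), and was -0.20 relative to the all-gene median. The call held in 2 of 14 alternatives, with adjusted p in limma from 0.0382 to 0.356. After quantile normalization the log2 fold change was -0.12. It was also lost without moderation, in the fit of all detected genes and on leaving out each library except IgG replicate 1.

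**Figure D2:**
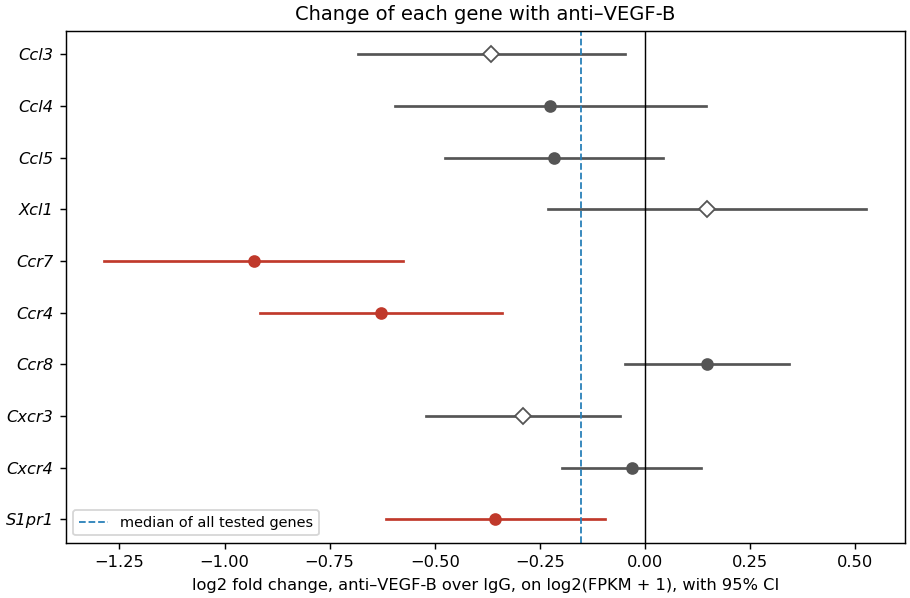
Log2 fold change (anti–VEGF-B over IgG, on log2(FPKM + 1)) of each gene with its 95% confidence interval from limma; filled circles are genes tested in the fit with the filter (red: adjusted p under 0.05), open diamonds are genes with a mean under 1 FPKM, from the fit of all detected genes. The dashed line marks the median of all tested genes at -0.15; the intervals of Ccr7 and Ccr4 lie wholly to its left.

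Ccl5 (ENSMUSG00000035042.2, chromosome 11, 83525778 to 83530518, minus strand), also called RANTES, attracts T cells, monocytes and eosinophils. It was the most abundant ligand of the 4, with 21.0, 19.2 and 18.2 FPKM in the IgG replicates and 19.9, 15.3 and 15.0 FPKM in the anti–VEGF-B replicates. The groups overlapped through anti–VEGF-B replicate 1, while the other two anti–VEGF-B libraries lay below all IgG libraries. The log2 fold change was -0.22 (SE 0.115, 95% CI -0.48 to 0.042, adjusted p = 0.175 in limma), or -0.065 relative to the all-gene median. With that library left out it was -0.34 and passed the threshold (adjusted p = 0.0438, limma), against a highest adjusted p of 0.937 over its 15 alternatives.

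Ccl3 and Ccl4, also called MIP-1α and MIP-1β, are inflammatory chemokines secreted by activated T cells and macrophages. Ccl4 (ENSMUSG00000018930.3, chromosome 11, 83662584 to 83664683, plus strand) had 2.84, 3.72 and 1.93 FPKM in the IgG replicates and 2.16, 2.47 and 2.04 FPKM in the anti–VEGF-B replicates. IgG replicate 3 was the lowest of all 6 libraries, so that the groups overlapped, and the log2 fold change was -0.23 (SE 0.164, 95% CI -0.60 to 0.14, adjusted p = 0.315 in limma), or -0.073 relative to the all-gene median. It was -0.061 without IgG replicate 2 and -0.41 without IgG replicate 3, not called in either fit. The sign of this estimate turned with quantile normalization (0.016). Ccl3 (ENSMUSG00000000982.5, chromosome 11, 83647844 to 83649355, minus strand) had 0.831, 0.820 and 0.290 FPKM in the IgG replicates and 0.144, 0.369 and 0.284 FPKM in the anti–VEGF-B replicates. Here too IgG replicate 3 was the lowest IgG library and overlapped with anti–VEGF-B. In the fit of all detected genes the log2 fold change of Ccl3 was -0.37 (SE 0.141, 95% CI -0.68 to -0.047, adjusted p = 0.0837 in limma), or -0.21 relative to the all-gene median. Without IgG replicate 3 it was -0.53 and passed the threshold (adjusted p = 0.0221, limma), and over 13 alternatives its adjusted p reached 0.470.

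Xcl1 (ENSMUSG00000026573.7, chromosome 1, 164931644 to 164935527, minus strand), also called lymphotactin, is the ligand of Xcr1 on cross-presenting dendritic cells. It had 0.613 and 0.486 FPKM in IgG replicates 1 and 2 and was listed at 0 in IgG replicate 3. The anti–VEGF-B replicates had 0.322, 0.534 and 0.609 FPKM. The groups overlapped. The log2 fold change was 0.15 (SE 0.168, 95% CI -0.23 to 0.53, adjusted p = 0.525 in limma), or 0.30 relative to the all-gene median. Its sign was decided by 1 library, since it was -0.062 without IgG replicate 3.

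Ccl3, Ccl4 and Ccl5 belong to the CC chemokine cluster of chromosome 11. By the table's coordinates 13228 bases separate Ccl3 from Ccl4, which lie on opposite strands, and 117325 bases separate Ccl5 from Ccl3. The RefSeq annotation of GRCm38.p6, in which all 10 genes were found at overlapping positions, has a longer Ccl4 gene that begins at 83648624, within Ccl3. By the table's own coordinates Ccl3 and Ccl4 do not overlap. Whether strand was used in quantification is not given in the sources used here, and sharing of reads between these genes was not tested. RefSeq lists 11 protein-coding genes named Ccl in this cluster, which span 1629107 bases from the start of the first to the end of the last. Of the 11, 3 were in the deposited table. None of these was called by limma, and Ccl3 alone had an unadjusted p under 0.05 (0.0288). Over all tested genes 23.8% were called lower and 4.87% higher, so that no call among 3 genes says little about the cluster.

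The log2 ratio of a pair of genes within a library does not change when all values of the library are multiplied by the same factor. Quantile normalization and cyclic loess can change this ratio. It was compared for 6 pairs by exact permutation tests, two-sided, whose smallest possible p with 3 against 3 libraries is 0.1. The ratio of Ccr7 to Cxcr4 was -1.24 ± 0.347 with IgG and -2.15 ± 0.218 with anti–VEGF-B (SD, n = 3). The difference was -0.91 with no overlap (exact permutation p = 0.1, 0.15 adjusted over the 6 pairs). Each anti–VEGF-B library thus held less Ccr7 per Cxcr4 transcript than each IgG library. The ratio of Ccr4 to Ccr8, 2 receptors of the same helper subsets, was 1.15 ± 0.376 with IgG and 0.35 ± 0.125 with anti–VEGF-B. The difference was -0.80 with no overlap (exact permutation p = 0.1, adjusted 0.15).

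The ratio of Ccr7 to S1pr1 was 6.11 ± 0.104 with IgG and 5.71 ± 0.215 with anti–VEGF-B, with no overlap (difference -0.40, exact permutation p = 0.1, adjusted 0.15, n = 3). Between Ccr7 and Cxcr3 the difference was -0.21 and the groups overlapped (exact permutation p = 0.2, adjusted 0.24). The ratio of the neighbouring ligands Ccl3 and Ccl4 was -2.23 ± 0.484 with IgG and -3.16 ± 0.644 with anti–VEGF-B, with no overlap (difference -0.93, exact permutation p = 0.1, adjusted 0.15, n = 3). The highest anti–VEGF-B library, at -2.743, and the lowest IgG library, at -2.738, were nearly equal in this ratio, and the difference was -0.56 without anti–VEGF-B replicate 1. Ccl4 and Ccl5 kept overlapping ratios (difference -0.075, exact permutation p = 1, adjusted 1). The ratio of Ccl3 to Xcl1 could not be formed for IgG replicate 3, where Xcl1 was listed at 0. With 0.1 FPKM added to both genes it was 1.00 ± 0.844 with IgG and -0.70 ± 0.238 with anti–VEGF-B, with no overlap (difference -1.70, exact permutation p = 0.1, 0.117 adjusted over 7 pairs, n = 3), and the difference was -1.22 without IgG replicate 3. With the same addition Ccr7 to Cxcr3 also did not overlap (difference -0.30).

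**Figure D3:**
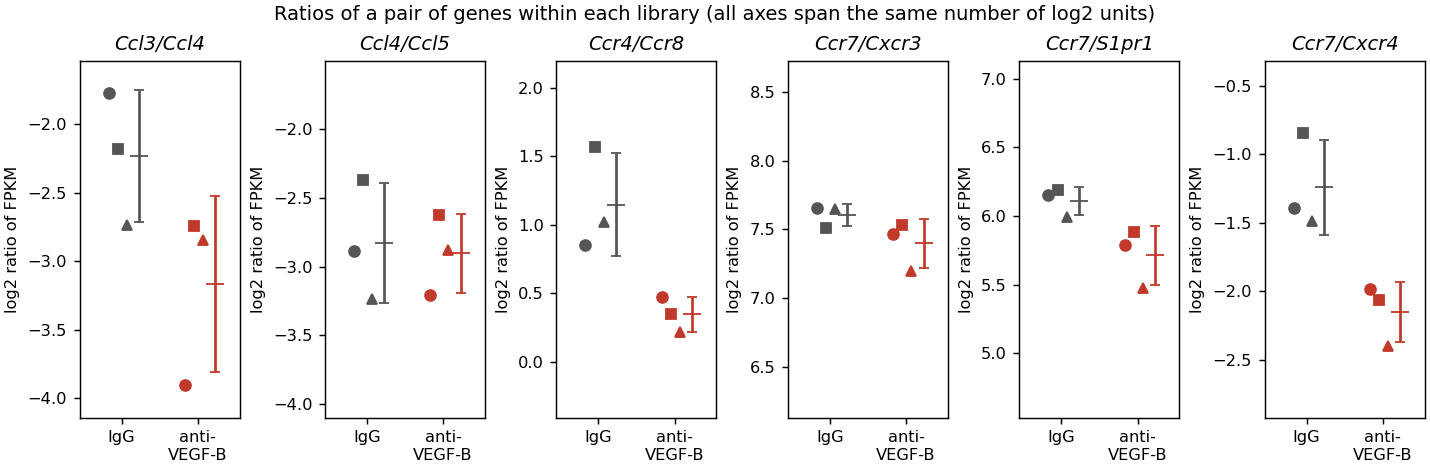
Log2 ratio of the FPKM of 2 genes within each library for 6 pairs, grey for IgG and red for anti–VEGF-B, with bars for mean ± SD (n = 3). The ratios of Ccr7 to Cxcr4, of Ccr4 to Ccr8, of Ccr7 to S1pr1 and of Ccl3 to Ccl4 are lower in each anti–VEGF-B library than in each IgG library; the ratios of Ccl4 to Ccl5 and of Ccr7 to Cxcr3 overlap.

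**Figure D4:**
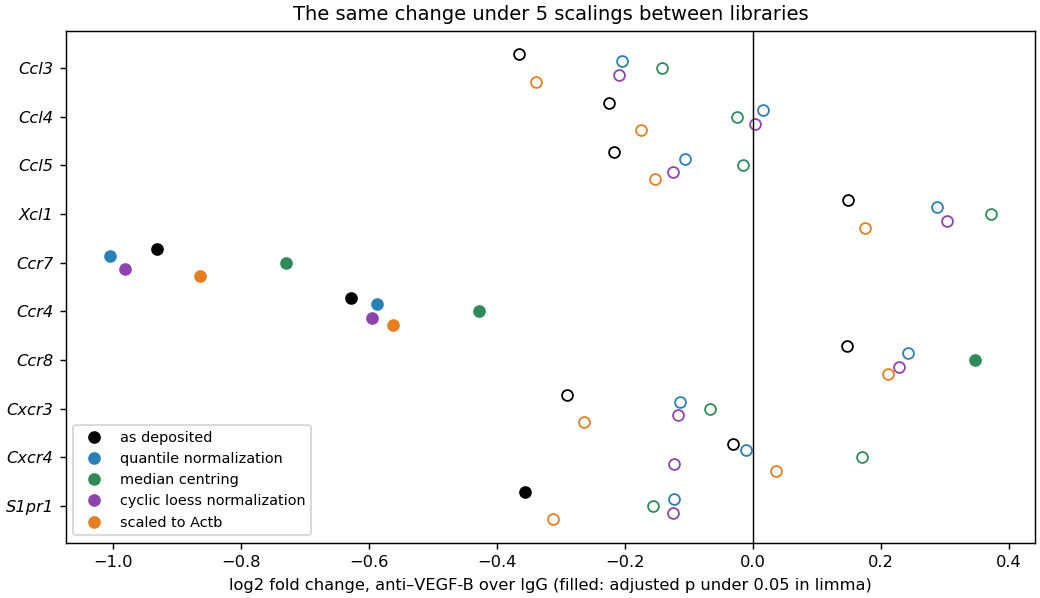
Log2 fold change of each gene under 5 scalings between libraries, filled where the adjusted p in limma was under 0.05. Ccr7 and Ccr4 are lower and called under all 5, S1pr1 is called only under the FPKM as deposited, and Ccr8 only with median centring.

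The rest of the chemokine family was read from lists of its known genes. Of 23 chemokine receptors 11 were in the table and 7 were tested, of which 2 were called lower (Ccr7 and Ccr4, 28.6%), 5 were not called and none was called higher in limma, except that Ccr8 was with median centring. At an unadjusted p under 0.05 in limma none was higher and 4 were lower, Ccr7 and Ccr4 among them. The share called lower is close to the 23.8% of all tested genes in the FPKM as deposited. After quantile normalization the same 2 of the 7 were called lower, beside 10.4% of all tested genes. Their median log2 fold change was -0.31, against -0.15 for all tested genes. Ccr1, a receptor of Ccl3 and Ccl5, had means of 0.295 FPKM with IgG and 0.133 FPKM with anti–VEGF-B.

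Of 39 chemokine ligands 7 were in the table and 3 were tested. None was called in either direction by limma (none at an unadjusted p under 0.05). Over all tested genes 23.8% were called lower and 4.87% higher, and 3 genes are too few to set against these shares. The median of the 3 was -0.23, against -0.15 for all tested genes. Among ligands of the receptors above, Cxcl10 was listed, with means of 0.398 FPKM with IgG and 0.504 FPKM with anti–VEGF-B and overlapping groups. Xcr1, Ccl1, Ccl17, Ccl19, Ccl21a, Ccl22, Cxcl9, Cxcl11 and Cxcl12 were looked up and were absent from the table, so that they have no values here.

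Genes of sphingosine 1-phosphate and of lymphoid entry and egress moved in both directions. Of 15 listed, 12 were in the table and 11 were tested, of which 4 were called lower (36.4%), 1 was called higher (9.09%) and 6 were not called, beside 23.8% lower and 4.87% higher over all tested genes. The median was -0.34, against -0.15 over all tested genes. Cd69, an early activation marker that binds S1pr1 and takes it off the cell surface, fell from a mean of 11.3 to 6.35 FPKM (-0.74 on the log2 scale, adjusted p = 0.00469 in limma). Thus the transcripts of S1pr1 and of its antagonist were both lower with anti–VEGF-B. The call of S1pr1 held in only 2 of 14 alternatives. Sphk2 and Sphk1, the kinases that make sphingosine 1-phosphate, fell by 0.59 and 0.34 on the log2 scale (adjusted p = 0.0324 and 0.0372, limma). Spns2, a transporter that exports it, rose from 2.09 to 3.06 FPKM (0.39, adjusted p = 0.0181 in limma). Klf2, a transcription factor known to drive S1pr1, had 8.10 FPKM with IgG and 7.46 FPKM with anti–VEGF-B and was not called (-0.097, adjusted p = 0.538 in limma). Klf2 was named after its value was seen. Cd69 and Spns2 kept their calls in 14 of 15 and 12 of 14 alternatives, Sphk2 in 7 and Sphk1 in 3 of 14. Only 1 gene of this list was called lower without anti–VEGF-B replicate 2, anti–VEGF-B replicate 3 or IgG replicate 2.

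Downstream of the receptors, 45 genes of G proteins, arrestins, kinases, RGS proteins and migration adaptors were listed, of which 43 were in the table and 40 were tested. Of these, 8 were called lower (20%), 3 were called higher (7.5%) and 29 were not called. The share called lower is under the 23.8% of all tested genes, and 4.87% of those were called higher. The median was -0.11, against -0.15 over all tested genes, and turned to 0.095 with median centring. The lower genes were Arrb1, Pik3r5, Grk2, Pik3cg, Rapgef1, Dock2, Ptk2b and Gnaq. Arrb1, an arrestin that uncouples and internalizes activated receptors, fell from 5.93 to 2.78 FPKM (-0.85 on the log2 scale, adjusted p = 0.0102 in limma). Grk2, the kinase that marks receptors for arrestin, fell by 0.44 (adjusted p = 0.0167, limma). Pik3cg and Pik3r5, catalytic and regulatory subunits of the phosphoinositide kinase that G protein βγ subunits activate, fell by 0.54 and 0.69 (adjusted p = 0.0182 and 0.0136, limma). Dock2, the Rac activator of lymphocyte migration, fell by 0.43 (adjusted p = 0.0315, limma). Rgs2, which shuts off G proteins, rose from 7.59 to 10.9 FPKM (0.47, adjusted p = 0.0126 in limma), and Gna13, a G protein α subunit, rose from 198 to 235 FPKM (0.25, adjusted p = 0.0280 in limma). Rhoa, the GTPase of the contracting cell rear, was also called higher (0.22, adjusted p = 0.0460 in limma) and is named beyond the limit of 10 genes. Many of these calls lay near the threshold. Dock2, Gnaq, Gna13, Ptk2b and Rapgef1 lost theirs in 8 to 10 of up to 15 alternatives, and 1 of the 40 genes was called lower when anti–VEGF-B replicate 3 was left out, 3 when IgG replicate 2 was, and 5 when anti–VEGF-B replicate 1 was.

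**Figure D5:**
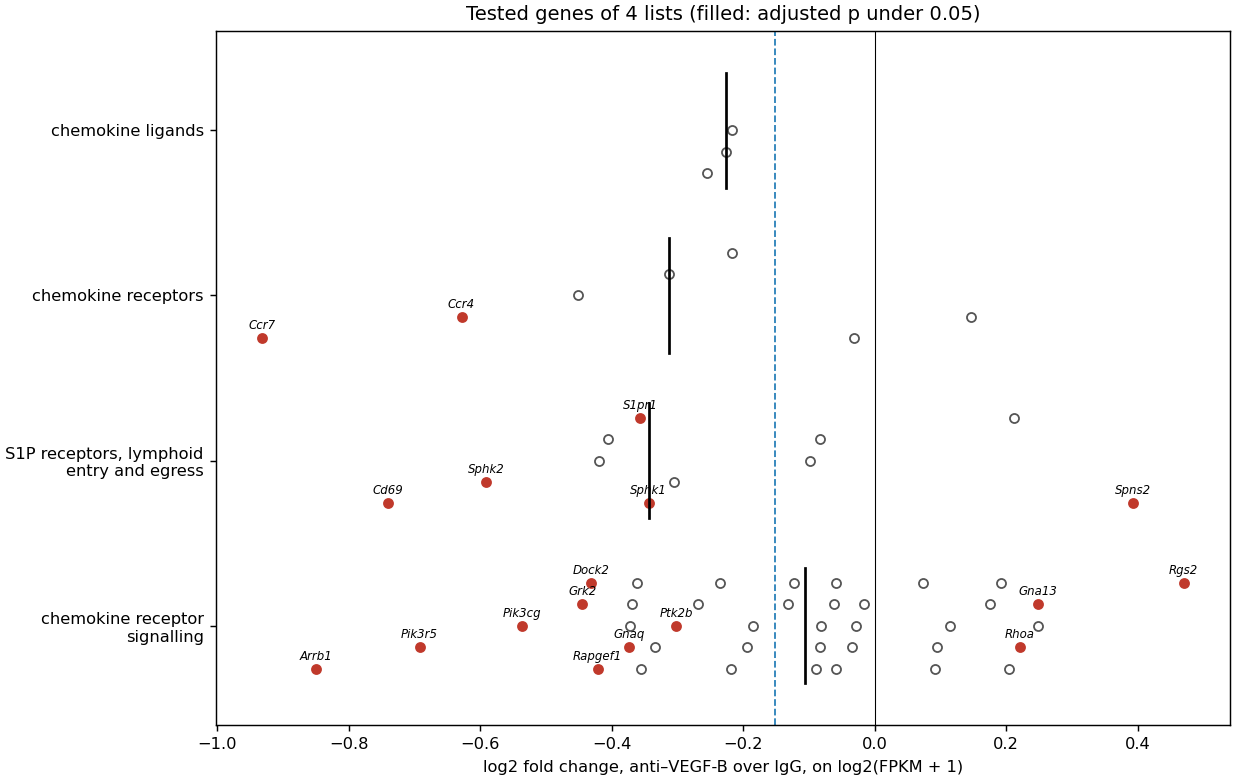
Log2 fold change (anti–VEGF-B over IgG, on log2(FPKM + 1)) of each tested gene of 4 lists, filled and named where the adjusted p in limma was under 0.05; black bars mark the median of a list and the dashed line the median of all tested genes at -0.15. Called genes lie on both sides of 0 in the lists of lymphoid entry and egress and of receptor signalling, and below 0 in the list of receptors, where Ccr8 is called above 0 only with median centring.

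The genes most like the 3 called members over the 6 libraries were found by the Euclidean distance between log2(FPKM + 1) values centred on each gene's mean. Closest to Ccr7 were Mgat2 (distance 0.0957), Nab2 (0.119) and Glipr2 (0.142). Closest to Ccr4 were Marveld1, Slc35a4 and Gimap8, at 0.108 to 0.110. S1pr1 was closest to Cnot9 (0.0376), Gstt1 and 9530068E07Rik. These distances describe 6 libraries.

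The libraries held the T cell markers Cd3e, Cd3d, Cd3g, Cd4, Cd5, Lck and Cd28, whose FPKM summed to 481 to 542 with IgG and 486 to 520 with anti–VEGF-B, and of these Cd3e and Cd5 were called lower (log2 fold change -0.51 and -0.38, adjusted p = 0.0197 and 0.0343 in limma). Of the markers of other cells, 2 of 2 for CD8 T cells (2.29 to 4.21 FPKM summed with IgG, 3.32 to 4.69 with anti–VEGF-B), 2 of 5 for NK cells (0.121 to 0.645 and 0.437 to 0.486), 1 of 5 for B cells (0.665 to 1.34 and 0.798 to 1.33), 1 of 5 for dendritic cells (0.271 to 0.372 and 0.171 to 0.364) and 1 of 4 for platelets (1.06 to 1.52 and 1.21 to 1.78) were in the table. Nearly all of the CD8 sum was Cd8b1, with means of 3.47 FPKM with IgG and 3.79 FPKM with anti–VEGF-B. Cd8a had means of 0.0493 and 0.0947 FPKM. Of 6 monocyte and macrophage markers 3 were in the table, summing to 10.9 to 12.1 FPKM with anti–VEGF-B and to 12.5, 12.4 and 27.0 FPKM in IgG replicates 1, 2 and 3. IgG replicate 3, which thus stood apart with 16.4 FPKM of Lyz2, had the lowest Ccl3 and Ccl4 of the IgG libraries and Xcl1 at 0. Without it, the log2 fold changes of Ccr7 and Ccr4 were -1.02 and -0.65 (adjusted p = 0.0110 and 0.0221, limma), and that of S1pr1 was -0.38 (adjusted p = 0.0831). The part of these other cells in the values of Ccl3 and Ccl4, which macrophages also make, was not tested.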

How the data were processed

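RNA-Seq of 3 anti–VEGF-B and 3 IgG libraries of CD4+ T cells was analysed. The authors made stranded libraries, aligned the reads to GRCm38 with hisat2 (2.1.0), quantified transcripts with StringTie (1.3.3) and Ballgown (2.10.0), used CPAT (1.2.4), and deposited 1 table of 10995 protein-coding genes. The methods mention raw counts and the table is named as raw data, but the entries hold decimals and were taken as FPKM deposited by the authors. No count model was run. No scaling between libraries and no filter behind the gene list is stated. Depth is unknown: among genes under 0.3 FPKM at most 0.935% shared a ratio to 4 decimals between libraries, and read numbers could not be recovered from the steps. The spread between libraries is the only error given.

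Genes averaging 1 FPKM or more were fitted on log2(FPKM + 1) in R 4.3.3 with limma 3.58.1 (empirical Bayes with trend, no covariate, two-sided). Genes under this filter were read from a fit of all 10990 detected genes. Ratios were compared with exact permutation tests. The columns were matched to samples by title. Each member was named, together with called genes of 4 lists (at most 10 a list, by p), ligands and receptors of the members, and the 3 genes nearest to each called member. Genes named beyond this are said to be so. Members, lists and tests were chosen with earlier results of these data known. Alternatives changed the scaling, filter, pseudocount, moderation, replicate block and libraries included. The results of a few listed genes are not reported here.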

Additional observations from a re-analysis of the deposited data

How the results depend on the processing

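Ccr7 and Ccr4 kept their direction and call in 14 of 15 alternatives, and lost the call without moderation of the variances (-0.93 and -0.63, adjusted p = 0.0850 and 0.0936 in limma), where 6 genes of the whole table were called in each direction. S1pr1 lost its call with quantile normalization (-0.12), median centring (-0.16), cyclic loess (-0.13), Actb scaling (-0.31), and at -0.36 with no filter, no moderation or the replicate block (adjusted p = 0.0516, 0.109 and 0.0698, limma). Leaving out 1 library moved it from -0.42 to -0.27. Ccl3 (-0.53 to -0.28) and Ccl5 (-0.34 to -0.15) were called on leaving out IgG replicate 3 and anti–VEGF-B replicate 1, respectively. Ccr8 was called with median centring (0.35). Signs turned for Ccl4 with quantile normalization (0.016) and cyclic loess (0.0029), for Xcl1 without IgG replicate 3 (range -0.062 to 0.28), and for Cxcr4 with median centring (0.17), Actb scaling (0.036) and without IgG replicate 3 (range -0.066 to 0.00029). The causes were not tested. Of the 3 ligands that passed the filter, 1 was called lower without anti–VEGF-B replicate 1, and 0 on leaving out any other library. Of the members, 0 were called lower without moderation and 1 higher with median centring.

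Over the whole table, genes called lower and higher numbered 913 and 880 with quantile normalization, 807 and 1365 with median centring, 938 and 852 with cyclic loess, 1309 and 365 with Actb scaling, and 989 and 342 at a mean of 5 FPKM or more. They ranged from 695 to 2071 lower and from 164 to 396 higher without 1 library, the fewest without anti–VEGF-B replicate 3. The chemokine receptors called lower were 0 without moderation and 4 with the replicate block, and 1 was called higher with median centring. In the list of lymphoid entry and egress, 1 gene was called lower with quantile normalization, median centring, cyclic loess or the filter at 5 FPKM, 2 with Actb scaling, 0 without moderation, and 1 to 3 without 1 library. Called higher there were 2 genes with median centring, 0 with the filter at 5 FPKM or without moderation, and 0 to 1 without 1 library. In the signalling list, 4 genes were called lower with quantile normalization or cyclic loess, 3 with median centring or Actb scaling, 5 with the filter at 5 FPKM, 0 without moderation, and 1 to 9 without 1 library. Called higher there were 9 genes with median centring, 1 with quantile normalization, cyclic loess or Actb scaling, 0 without moderation, and 0 to 2 without 1 library, and the median was 0.095 with median centring.

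The labels do not say whether the replicate numbers pair the libraries. The correlations of deviations from the group means were -0.030, 0.110 and 0.089 for numbers 1, 2 and 3. Between different numbers they lay from -0.175 to 0.0997, and not every library was closest to its own number. With 3 libraries a group these deviations constrain each other, so that the correlations cannot decide on pairing. With the replicate block, 2109 genes were called lower and 469 higher. Depth is unknown, so that counting error of the low genes Ccl3, Xcl1 and Cxcr3 could not be given.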
